A study of Mus musculus with 2 samples.

Results

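Fibrillar collagens and the proteins that process procollagen were followed across a pair of microarrays that set Mybbp1a-knockdown C2C12 cells against control C2C12 cells. The group was made up of 10 genes: the chain genes Col1a1, Col1a2, Col3a1, Col5a1 and Col5a2, the propeptide-cleaving enzymes Adamts2 and Bmp1, the cleavage enhancer Pcolce, the chaperone Serpinh1 and the prolyl hydroxylase subunit P4ha1. They were found by the gene name printed beside each probe, which gave 21 of 41174 non-control probes, 30 of 43379 non-control spots and 10 of 27575 gene names. The genes were selected on their knockdown-over-control log2 ratios on these same arrays, so those ratios are given as a description and carry no test.

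C2C12 is a mouse myoblast line, here labelled as adult C3H leg muscle in origin, and both arrays used mixed stable clones kept subconfluent in growth medium with 20% serum. On each of the 2 arrays, RNA of clones carrying an shRNA against Mybbp1a, a nucleolar and nuclear co-repressor protein, was labelled with Cy5 and hybridised with Cy3-labelled RNA of clones carrying a control shRNA. The dyes were never exchanged, so knockdown and Cy5 cannot be told apart at any single probe. The arrays are described as biological replicates, but not as separate infections or clone pools, so the spread between them may be partly technical, and because each lay on its own slide, replicate and slide cannot be told apart. In a culture measured in bulk, fewer cells of a type and less RNA per cell cannot be told apart either.

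Fibrillar collagens are secreted as triple-helical procollagens: type I joins a pair of alpha1 chains from Col1a1 with a single alpha2 chain from Col1a2, type III is built from Col3a1 alone, and type V, which mixes Col5a1 and Col5a2 chains, helps to start fibrils. Inside the cell, prolyl hydroxylase stabilises the helix and the chaperone HSP47, encoded by Serpinh1, binds it on the way to secretion. Outside, ADAMTS2 removes the amino-terminal propeptide and BMP1 the carboxy-terminal one, the latter with help from PCOLCE, and fibrils then assemble. Fibroblasts and osteoblasts are the best-known producers of type I and type III collagen, and muscle cells in culture make these chains as well.

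Col1a1 and Adamts2 had by far the highest knockdown-over-control ratios of the 10 genes. Col1a1 averaged 8.91-fold higher in the knockdown channel and Adamts2 averaged 4.71-fold higher, and both were at least 2-fold higher on each array. These 2 of 10 genes stand beside 114 of all 18066 genes tested, or 0.631%, and no member was at least 2-fold lower on both arrays, against 0.0554% of all genes. Another 5 genes, Col3a1, P4ha1, Col1a2, Bmp1 and Col5a2, were higher on both arrays by less. That makes 7 of 10 higher on both, beside 40.6% of all genes, and 0 of 10 lower on both, beside 29.4% of all genes. Col5a1, Pcolce and Serpinh1 had ratios of opposite sign on the arrays. Array 1 gave the 10 genes a median log2 ratio of 0.38 and array 2 a median of 0.60, where the median over all genes tested was 0.03 on each. Because the comparison itself led to the choice of these genes, nothing is read from these shares. A limma fit across all 18066 genes called no gene at a Benjamini-Hochberg adjusted p of 0.05, neither higher (0%) nor lower (0%). Its lowest adjusted p was 0.176, while an unadjusted p under 0.05 was reached by 2414 genes with a higher and 1354 with a lower ratio. With 2 arrays a single gene has 1 residual degree of freedom, and an exact two-sided sign-flip test cannot go below 0.5.

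**Figure D1:**
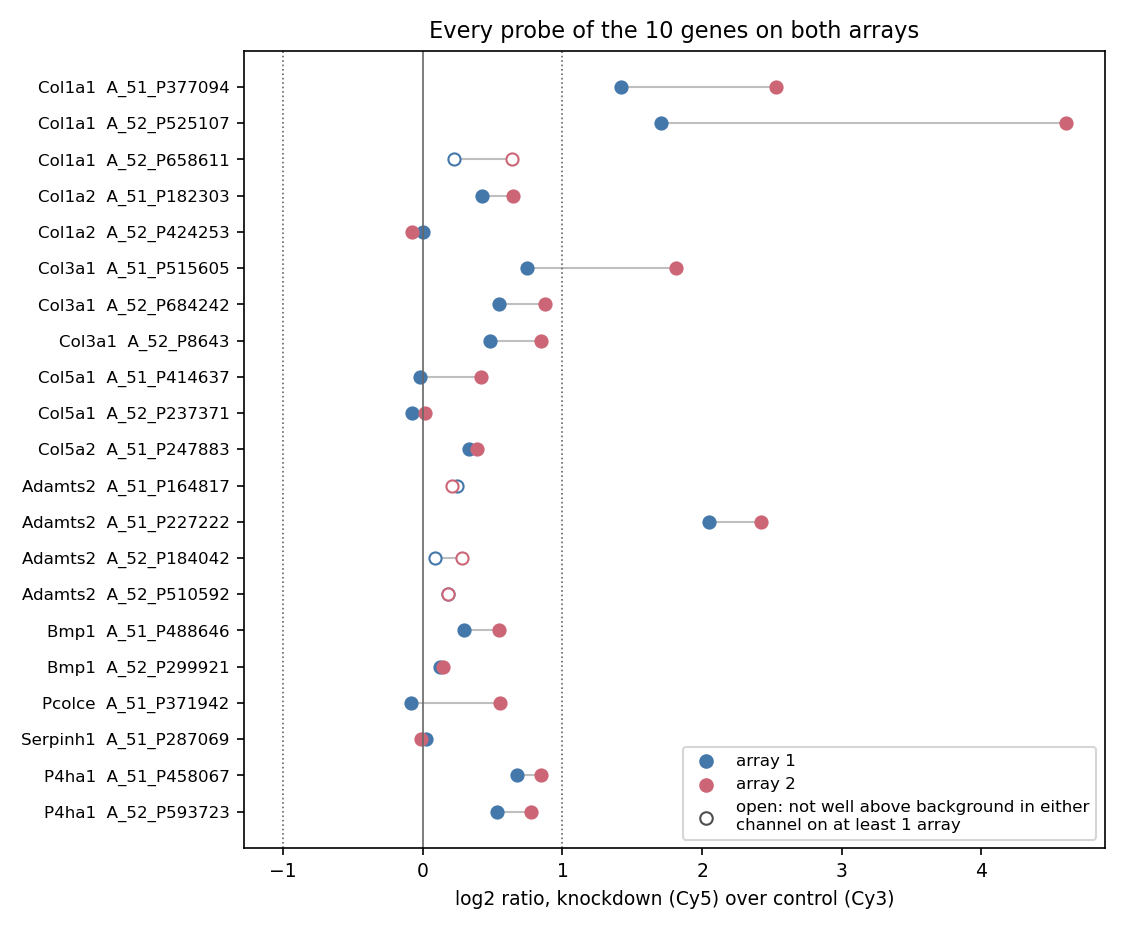
Log2 ratio of knockdown (Cy5) over control (Cy3) for each of the 21 probes, array 1 in blue and array 2 in red, with open symbols for the 4 probes that were not well above background in either channel on at least 1 array and dotted lines at 2-fold. The Col1a1 probe A_52_P525107 has the longest distance between its points, from 1.71 to 4.60, and 1 of the 4 Adamts2 probes stands apart from the other 3.

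The targeted gene was checked first. The single Mybbp1a probe read -1.64 on array 1 and -1.91 on array 2, averaging -1.78 ± 0.19 (SD, n = 2), so 3.42-fold lower, which matches the labels. The myoblast label was also met: all 8 listed myoblast markers, among them the muscle regulators Myod1 and Myf5 and the muscle intermediate filament gene Des, were well above background in both channels of both arrays, with mean log2 ratios from -0.15 to 0.47. More spots were detected on array 2, with 79.7% of non-control spots well above background in Cy5 and 72.9% in Cy3, against 65.6% and 64.9% on array 1. The median signal was 329 (array 1) and 449 (array 2) in Cy5 and 159 and 184 in Cy3. The arrays also differed in a control added to the labelling: the 320 spots of the E1A spike-in had a median net signal of 319 in Cy5 and 107 in Cy3 on array 1, but 25776 and 8573 on array 2. Whether that bears on any ratio below was not tested. The signals quoted below are spot means less local background, in scanner units and before dye normalization, so Cy5 runs above Cy3 for most genes and only the log2 ratios are corrected for it.

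Some of the type I and type III probes can be read in part from their letters. The probes below are shown because each holds an open reading frame with several cysteine codons, given in capitals. They are not the brightest probes of Col1a1 and Col3a1, which stood for those genes in the fit. Positions are on mouse build mm8, plus strand, as the arrays' annotation gives them.
Col1a1 A_52_P658611: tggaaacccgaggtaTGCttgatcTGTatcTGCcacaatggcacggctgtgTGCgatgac
Col1a1 A_51_P377094: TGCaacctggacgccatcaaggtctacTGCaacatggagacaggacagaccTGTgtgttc
Col3a1 A_52_P684242: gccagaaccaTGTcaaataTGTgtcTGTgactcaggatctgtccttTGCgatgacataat
A_52_P658611, at chr11:94754053-94754112, holds 4 cysteine codons in 1 open frame, and the Col3a1 probe A_52_P684242, at chr1:45266098-45266157, holds 4 as well. Cysteine-rich stretches of this kind are a known feature of the amino-terminal propeptides of both chains. A_51_P377094, at chr11:94766828-94766887 and 12.8 kb downstream of A_52_P658611, holds 3 cysteine codons, and cysteines near the other end of the chain link the carboxy-terminal propeptides. The remaining Col1a1 probe, A_52_P525107, lies further downstream still, at chr11:94767851-94767910. No other of the 41153 remaining probes shares a run of 20 bases with any probe of the 10 genes.

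Col1a1, the alpha1 chain of type I collagen, had the second highest mean log2 ratio of all genes tested, and it also differed most between the arrays within the group. The probe A_52_P525107, printed in 10 spots, read 1.71 on array 1 and 4.60 on array 2, or 3.27-fold and 24.3-fold, with a mean of 3.16 ± 2.05 (SD, n = 2). A_51_P377094 read 1.42 and 2.53, a mean of 1.97 ± 0.79 (SD, n = 2) or 3.92-fold. So both bright probes placed the knockdown above the control on each array, and both gave the higher ratio on array 2. A_52_P658611, in the propeptide stretch printed first above, read 0.22 and 0.64, and turned to -0.13 on array 1 with median centring. Its control signal was not well above background on array 1 or on array 2, its knockdown signal was on 1 array only, and it was left out of the fit. The 3 probes thus gave 3 different sizes for 1 gene.

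The 10 spots of A_52_P525107 put the difference between the arrays beyond the scatter within an array. Their log2 ratios ran from 1.64 to 1.82 on array 1 (SD 0.06) and from 4.54 to 4.67 on array 2 (SD 0.04), with no overlap, and the median spot SD was the same to 2 decimals over the 169 probes printed in 10 spots (0.06 and 0.04). The control channel accounted for most of the distance. Its median signal over the spots was 5149 on array 1, with a range of 3392 to 6392, and 868 on array 2, with a range of 759 to 935. In the knockdown channel the median was 44311 (27669 to 52935) and 56151 (49001 to 60790), ranges that overlap. Spots on 1 array share its hybridisation and are not replicates of the condition.

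**Figure D2:**
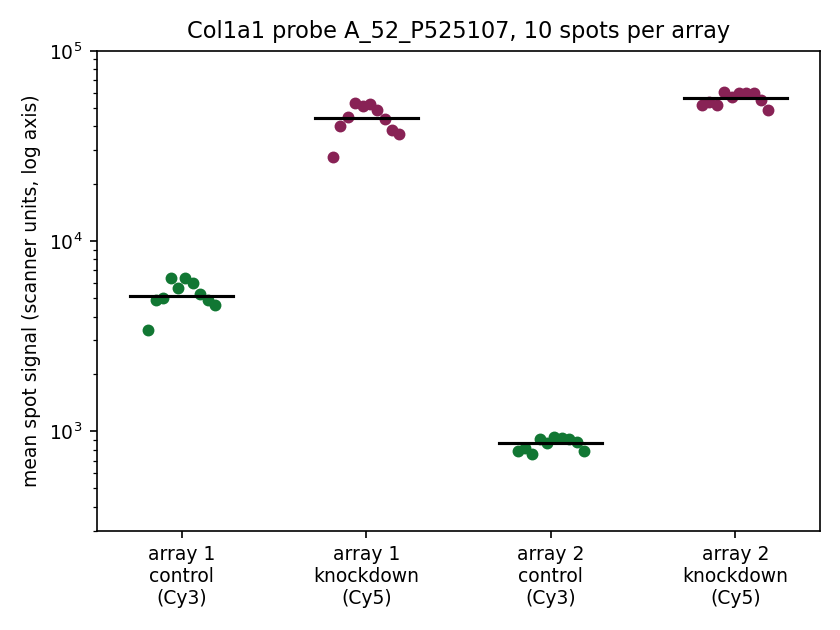
Mean signal (scanner units, log axis) of each of the 10 spots of Col1a1 probe A_52_P525107, by array and channel, with a black bar at the median. The control spots have medians of 5149 on array 1 and 868 on array 2 without overlap, while the knockdown spots overlap at medians of 44311 and 56151.

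Net of background, the control signal of A_52_P525107 was 5215 on array 1 and 815 on array 2, and the knockdown signal was 43661 and 55866. Before normalization the second bright probe, A_51_P377094, went the same way, with 322 and 114 in the control and 2178 and 2300 in the knockdown. After normalization its level differed, array 2 minus array 1, by -1.20 in the control and -0.09 in the knockdown. With A_52_P525107 the normalized control level of Col1a1 was lower on array 2 by 2.53 on the log2 scale (a difference of -2.53). Its knockdown level was higher by 0.37. The control difference was exceeded in the same direction by 20 of 18066 genes, and the knockdown difference in its own direction by 2056. The distance of 2.90 between the arrays' log2 ratios was exceeded in size by 17 of 18066 genes, or 0.0941%. It ranged from 2.00 to 2.96 over the 8 other ways of processing that keep both arrays.

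Markers of fibroblasts, and some of myoblasts, moved with that array difference. Of 6 fibroblast markers, 4 were tested, with a median log2 ratio of 0.58 (array 1) and 1.78 (array 2). The net signal summed over all 6 was 58423 and 15562 in the control channel and 206590 and 172006 in the knockdown channel. Ly6a, at 36167 and 12304, and Cd34, at 21607 and 2861, made up most of that control sum. The Dpt control was dim, at 64.2 and 40. Cd34, a surface protein of connective-tissue progenitors, read -0.26 and 2.54, Ly6a (Sca-1) 0.54 and 1.79, Pdgfra, a receptor of fibroblast-lineage cells, 0.98 and 1.77, and Dpt 0.62 and 1.03, whereas Thy1 and Tcf21 were not well above background in any channel. The 8 myoblast markers had median log2 ratios of 0.05 (array 1) and 0.29 (array 2), and summed to 94137 and 77196 in the control and to 257440 and 230091 in the knockdown. Chrna1, at 51207 and 52170, made up most of that control sum. Myoblast markers with a lower control signal on array 2 included the cadherin gene Cdh15 (19202 and 6565, with log2 ratios of -0.14 and 0.75) and Myf5 (1108 and 273, with 0.21 and 0.59). Their knockdown signals were lower on array 2 as well, at 47056 and 30343 for Cdh15 and 3052 and 1176 for Myf5. Other myoblast markers went the other way. The log2 ratio was lower on array 2 for Itga7 (0.27 and 0.06) and Chrna1 (-0.06 and -0.23). The control signal of Pax7 was higher on array 2 (155 and 200), as was that of Chrna1. Of 5 osteoblast markers 3 were tested, with medians of 0.20 (array 1) and 0.06 (array 2): the bone matrix gene Bglap read 1.92 and 1.63, the osteoblast regulators Runx2 0.03 and -0.14 and Sp7 0.20 and 0.06, while Ibsp and Alpl were not well above background in any channel. Of 5 endothelial markers 2 were tested, Cdh5 at 1.03 and 0.68 and Tek at 0.13 and 0.22, and the net signal summed over all 5 was 214 and 364 in the control and 586 and 1118 in the knockdown. Of 5 leukocyte markers 3 were tested, with mean log2 ratios from 0.02 to 0.28 and summed signals of 456 and 905 in the control and 1039 and 2556 in the knockdown. Pecam1 and Ptprc, the defining markers of these types, were not well above background in any channel. The part of these markers in the Col1a1 ratio was not tested.

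Col1a2, which supplies the other chain of type I collagen, did not follow Col1a1. Its bright probe A_51_P182303 read 0.42 on array 1 and 0.64 on array 2 and averaged 0.53 ± 0.15 (SD, n = 2), which is 1.45-fold, from net control signals of 50594 and 48940 and knockdown signals of 205532 and 233347. The arrays nearly coincided here in the control channel, where Col1a1 did not. The dimmer probe A_52_P424253 read 0.0013 and -0.08, and it is the only Col1a2 probe that the deposited value table fills on both arrays, where the gene's mean is -0.05. The distance between the ratios of the 2 type I chains was 1.28 on array 1 and 3.96 on array 2, an unequal change of 2.44-fold and 15.6-fold within an array.

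Col3a1, the sole chain of type III collagen, came next among the chains. A_51_P515605 read 0.75 on array 1 and 1.82 on array 2, which averages to 1.28 ± 0.76 (SD, n = 2), or 2.43-fold, with net control signals of 49637 and 28845 and knockdown signals of 254668 and 308100. Its other probes, A_52_P684242 in the cysteine-rich stretch and A_52_P8643, read 0.55 and 0.87, and 0.48 and 0.85. All 3 probes were thus above 0 on both arrays and higher on array 2, and the gene stayed below 2-fold on array 1. As with Col1a1, the control level was lower on array 2 (a difference of -0.79) and the knockdown level higher (0.28), and 2.07% of all genes had a larger distance between the arrays than its 1.07.

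The type V chains had smaller ratios. Col5a1 gave -0.02 and 0.41 with A_51_P414637, a mean of 0.20 ± 0.31 (SD, n = 2), so the sign depended on the array, and its control level on array 2 was again the lower (a difference of -0.46) with a knockdown level that barely differed (-0.03). The other Col5a1 probe, shown for the repeat that gives fibrillar chains their helix, carries glycine codons (in capitals) at the regular spacing of the collagen repeat and spans chr2:27808732-27811155 (mm8, plus strand).
Col5a1 A_52_P237371: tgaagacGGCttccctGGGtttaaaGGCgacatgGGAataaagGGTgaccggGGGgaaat
Its 60 bases cover 2424 bases of genome and hold 6 such codons, and it read -0.07 and 0.02. Col5a2 was the steadiest chain, at 0.33 and 0.38 with a mean of 0.36 ± 0.04 (SD, n = 2), and its control (3592 and 4415) and knockdown (11013 and 15596) signals were both higher on array 2. The ratio of Col5a1 to Col5a2 differed by -0.35 on array 1 and 0.03 on array 2. Col5a2 and Col3a1 are neighbours, with their probes 27.97 kb apart on chromosome 1 (mm8), on opposite strands, and with 0 protein-coding genes between them in RefSeq GRCm38.p6. Their log2 ratios nevertheless differed by 0.41 on array 1 and 1.43 on array 2.

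**Figure D3:**
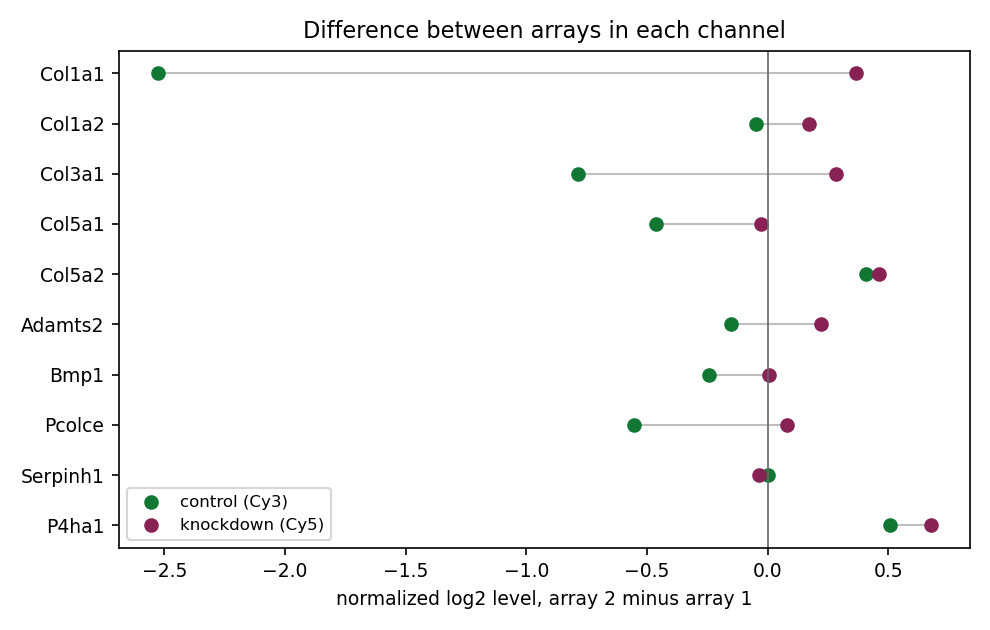
Normalized log2 level on array 2 minus that on array 1, for the brightest probe of each gene, with the control channel (Cy3) in green and the knockdown channel (Cy5) in purple. Col1a1 has the lowest control point (-2.53) beside a knockdown point of 0.37, and Col3a1, Pcolce and Col5a1 also have control points well to the left of their knockdown points.

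Adamts2, the enzyme that removes the amino-terminal propeptide, ranked 11 among all genes tested by mean log2 ratio, but 1 of its 4 probes carried that value. The probe A_51_P227222 is printed because its open frame ends in a stop codon (capitals), and A_52_P184042 as a contrasting probe with an open frame further upstream. They lie at chr11:50647393-50647452 and chr11:50620109-50620168 (mm8, plus strand), 27.3 kb apart.
Adamts2 A_51_P227222: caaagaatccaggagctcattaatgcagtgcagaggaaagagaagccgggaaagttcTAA
Adamts2 A_52_P184042: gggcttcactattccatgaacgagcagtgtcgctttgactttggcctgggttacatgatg
A_51_P227222 gave 2.05 on array 1 and 2.42 on array 2, and its mean of 2.23 ± 0.26 (SD, n = 2) equals 4.71-fold, from net control signals of 60.5 and 60.6 and knockdown signals of 860 and 1341. That control signal is close to background, and the size moved with the background correction: the arrays read 2.65 and 3.07 with no normexp offset and 3.05 and 3.67 with the scanner software's own processed signals. The other probes read less. A_52_P184042 gave 0.08 and 0.28 and A_51_P164817, at chr11:50650754-50650813, gave 0.25 and 0.21, both not well above background in either channel on array 1. On array 2 both were well above background in both channels. Their net control signals there were 80.6 and 108, above the 60.6 of A_51_P227222. A_52_P510592, at chr11:50641399-50641458, gave 0.18 and 0.18, with a control not well above background on array 1 or array 2. With median centring these 3 probes read -0.37, -0.33 and -0.24 on array 1, and with processed signals -0.22, 1.12 and 0.50 on array 1 and 0.38, 0.34 and 0.58 on array 2, so their sizes and signs on array 1 are not settled. None of them entered the fit. The value of Adamts2 therefore rests on 1 probe, and which transcripts each probe detects was not tested.

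Bmp1, the carboxy-terminal propeptide protease, had a mean of 0.42 ± 0.18 (SD, n = 2) with A_51_P488646, at 0.30 and 0.55, and net control signals of 3579 and 2784. Its second probe gave 0.13 and 0.15. In the deposited value table this second probe alone is filled for Bmp1 on both arrays, with a mean of -0.003. Pcolce, which enhances BMP1 cleavage of procollagen, read -0.08 on array 1 and 0.55 on array 2, averaging 0.23 ± 0.45 (SD, n = 2), with signs that differ. Its control signal was 69245 and 47232 and its knockdown signal 200664 and 210558, so the distance of 0.64, exceeded by 6.22% of all genes, again lay in the control channel.

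The intracellular helpers differed from each other. Serpinh1 was level on both arrays at 0.02 and -0.01, a mean of 0.01 ± 0.02 (SD, n = 2), with net control signals of 55692 and 55074 and knockdown signals of 170794 and 165970. Its sign is not settled: the mean was -0.07 with the scanner software's processed signals, -0.009 with no normexp offset and 0.55 with median centring. P4ha1, the catalytic subunit of prolyl 4-hydroxylase, read 0.67 and 0.85 with A_51_P458067, a mean of 0.76 ± 0.12 (SD, n = 2) or 1.69-fold, and 0.53 and 0.77 with A_52_P593723. Both P4ha1 probes were higher in the knockdown on each array, and the gene stayed between 0.66 and 1.05 over all alternatives run.

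Over the group, 9 of 10 genes had a higher ratio on array 2 than on array 1, beside 50.1% of all genes, with Serpinh1 the exception, and that order turned for Col1a2, Col5a2 or Serpinh1 under at least 1 other way of processing. Their median distance between arrays was 0.31, and the median absolute distance over all genes was 0.15. Of the 17 probes tested, all well above background in both channels of both arrays, 3 were at least 2-fold higher on both, beside 0.511% of all 27006 probes, and 12 were higher on both, beside 37.9%. In all 6 genes with more than 1 tested probe, the brightest probe also had the highest ratio. That was so with the processed signals, median centring and no offset as well. By a looser measure, the brightest probe lay above the mean of the others in 58.1% of the 6139 genes with several tested probes, in 62.0% with processed signals, 76.3% with median centring and 59.2% with no offset, and in 6 of the 6 members under each. For Col1a1, Col1a2, Col3a1 and Col5a1, the brightest probe took its Cy5 signal from a scaled-up low-gain scan on both arrays. Their other probes did not. The Cy3 signal of the brightest probe was scaled up as well for Col1a2 and Col3a1, but not for Col1a1 and Col5a1. The only probes of Pcolce and Serpinh1 were scaled up in both channels on both arrays. That makes 6 of 10 genes in Cy5 and 4 in Cy3. Over all features, the Cy5 share was 11.9% on array 1 and 11.3% on array 2. Whether the scaling bears on the ratios was not tested.

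**Figure D4:**
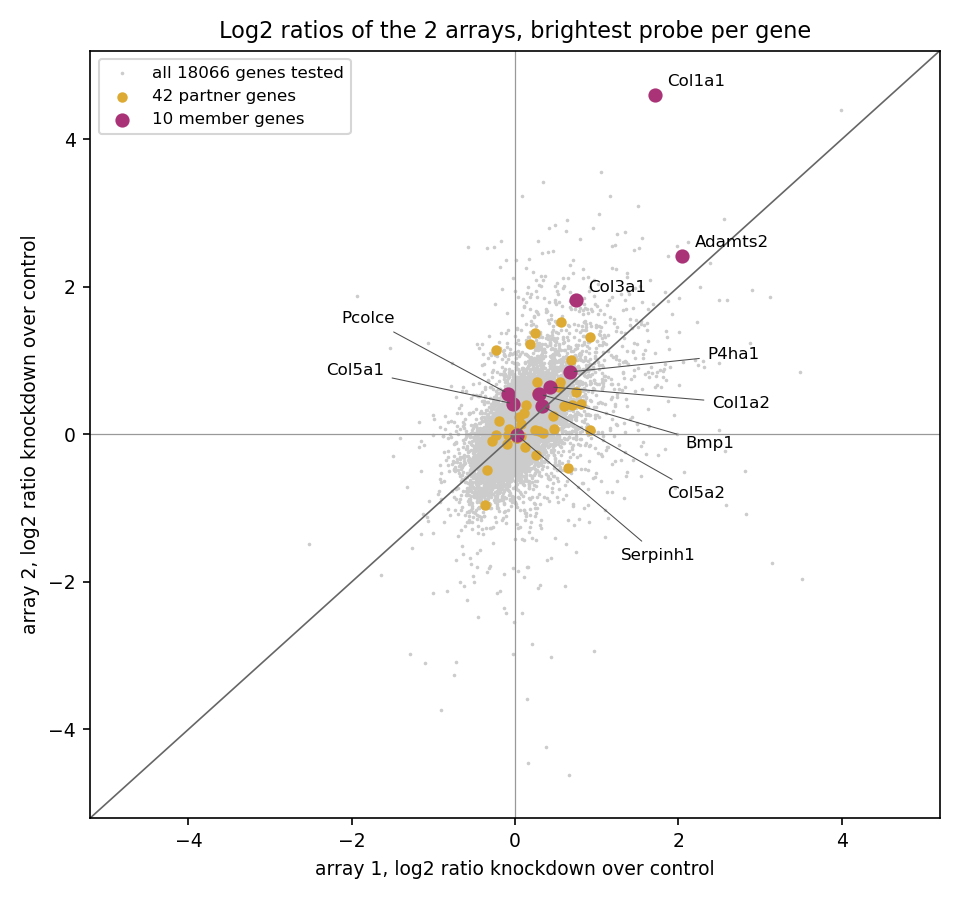
Log2 ratio of knockdown over control on array 1 (x axis) against array 2 (y axis) for the brightest probe of each of 18066 genes (grey), 42 partner genes (yellow) and the 10 genes described (purple), with the line of equal ratios. Col1a1 lies far above the line at 1.71 and 4.60, Adamts2 close to it at 2.05 and 2.42, and Serpinh1 at the origin.

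A list of 48 further collagen genes, enzymes, chaperones and fibril-surface proteins was read for comparison, 42 of them tested. None was at least 2-fold higher or at least 2-fold lower on both arrays, beside 0.631% and 0.0554% of all genes. Their median log2 ratio was 0.18, where the median over all genes tested was 0.03. Of the 42, 26 were higher and 6 lower on both arrays, beside 40.6% and 29.4% of all genes. The other 10 were of mixed sign. The same shares over all genes stand beside the role counts below. Surface and cross-linking proteins had the highest median of the roles, 0.46 over 13 genes, 11 of them higher on both arrays. That median is the value of 1 gene that read -0.23 and 1.15, with a control well above background on 1 array only. The other roles had medians between -0.01 and 0.16, over 5 other fibrillar chains (2 higher on both, 0 lower), 4 peptidases and enhancers (2 and 2), 12 hydroxylation and glycosylation genes (7 and 0) and 8 folding and secretion genes (4 and 3).

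The closest relatives of the 10 genes did not share one pattern. Col5a3, a further type V chain, read 0.65 on array 1 and -0.46 on array 2, and Col11a1 was too dim to be tested. Among the amino-terminal propeptidases related to Adamts2, Adamts14 read 0.59 and 0.38 and Adamts3 -0.09 and -0.01. Pcolce2, the relative of Pcolce, was lower on both arrays at -0.37 and -0.96. The alternative hydroxylase subunit gene P4ha2 read 0.18 and 1.23, and P4hb, which encodes the beta subunit that both catalytic subunits need, read -0.02 and 0.40.

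Genes outside the group with a RefSeq gene symbol were ordered by how near their pair of array log2 ratios lay to that of Col1a1. By Euclidean distance over the 2 arrays, the nearest 5 were Ripk3, Qpct, Spon2, Selenbp1 and Rsph9, at distances from 1.23 to 1.81. Ripk3, a kinase of necroptosis, read 1.05 and 3.56, and its control level, like that of Col1a1, was lower on array 2 (-3.06), as was that of Rsph9 (-2.89), which read 0.34 and 3.42. Selenbp1, a selenium-binding protein, read 1.03 and 2.98 through a knockdown level that was higher on array 2 by 1.90, with a control difference of -0.05. Qpct (1.17 and 3.23) and Spon2 (1.499 and 3.09) had both a lower control (-1.32 and -1.03) and a higher knockdown level (0.74 and 0.56) on array 2. These 5 genes thus differed in which channel set the arrays apart, and each lay well away from Col1a1.

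The ratios of the brightest genes depended on how the dyes were balanced. With median centring in place of loess, the median over all genes was 0.21, and Col1a2 had a mean of 1.08, Pcolce 0.79 and Serpinh1 0.55, where the loess curve had taken off 0.65, 0.67 and 0.65 on array 1 and 0.44, 0.44 and 0.43 on array 2. With that setting 4 of 10 genes, not 2, were at least 2-fold higher on both arrays, beside 289 of all 18066 genes, not 114. The log2 ratios of Col1a1, Col3a1, Adamts2, P4ha1 and Col5a2 kept their sign under each alternative run, each array alone included. Their ranges were 1.71 to 4.60, 0.75 to 1.83, 2.05 to 3.36, 0.66 to 1.05 and 0.33 to 0.65. Both ends for Col1a1, and the lower ends for Col3a1, Adamts2 and Col5a2, are values of 1 array alone. With both arrays kept, the mean of Col1a1 ran from 2.56 (mean over probes) to 3.48 (median centring). No alternative took in the other Adamts2 probes.

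**Figure D5:**
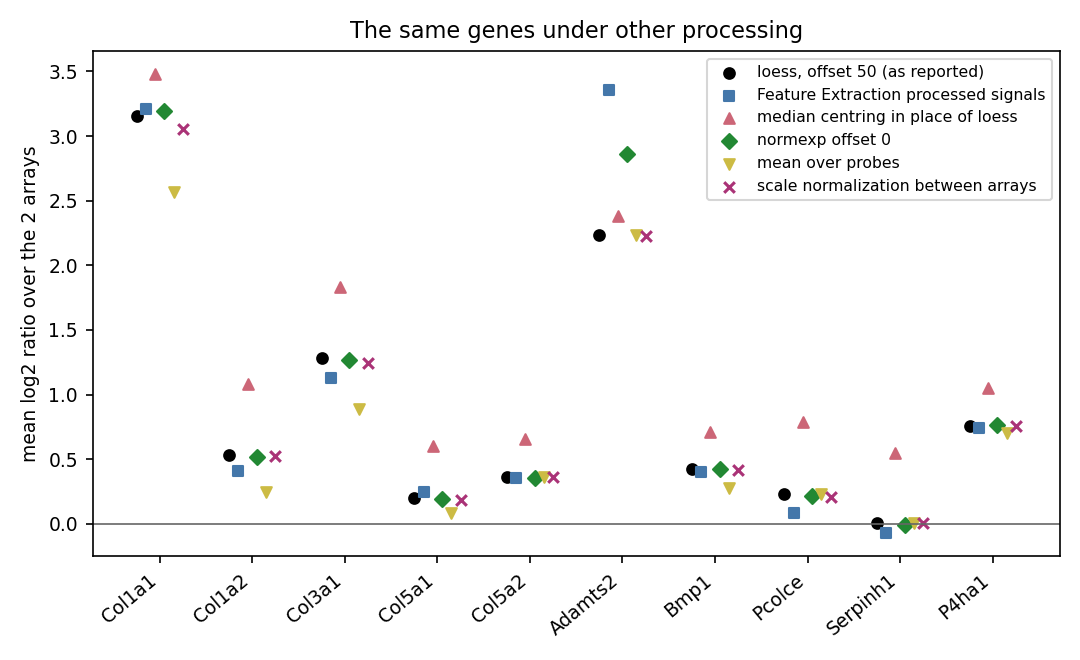
Mean log2 ratio over the 2 arrays of each gene (x axis) under 6 ways of processing, with the values as reported in black. Col1a1 and Adamts2 stay highest under each, while Serpinh1 lies slightly below 0 with processed signals (-0.07) and without an offset (-0.009), and at 0.55 with median centring. Adamts2 has only 1 tested probe, so its mean over probes equals its value as reported and takes in none of its other probes.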

How the data were processed

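RNA of knockdown (Cy5) and control (Cy3) clones was labelled from 0.5 µg of total RNA and hybridised to 2 Agilent whole mouse genome arrays. The deposited scanner files give intensity per spot and channel, extracted with Agilent Feature Extraction 9.5.3.1 per the submitters' processing notes, and a log10 ratio per the file headers. A deposited value table holds log2 ratios that agree, within 0.001, with the deposited log10 ratio after conversion to log2 for 99.4% of its filled probes on each array. It has a median of 0 and was used only as an alternative. Its direction was matched to the scanner files.

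Mean and background intensity were corrected with normexp (offset 50), normalized by loess (span 0.3) within arrays and averaged over the spots of a probe in limma 3.58.1 (R 4.3.3). Control and outlier-flagged spots were left out, and no spot of the 10 genes was flagged as an outlier. Probes entered the fit if, on both arrays, either channel was well above background, and the brightest stood for its gene. Symbols came from accessions (23374 probes), current symbols (6735), synonyms (2915) or the file (8150). The model was lmFit with eBayes on 2 ratios and was checked on simulated data.

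The members and lists were chosen with earlier results of these data known. Named are all 10 genes with every probe, Mybbp1a, partners at least 2-fold apart on both arrays, 7 close relatives, the 5 genes nearest Col1a1, and markers as lists. Alternatives were processed signals, median centring, the deposited table, offset 0, other filters, the mean over probes, scale normalization and single arrays. Precision is limited by the number of arrays. Probe coordinates are on mm8; exon positions on that build were not used here. The sequence of 1 probe is not reported here.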

Additional observations from a re-analysis of the deposited data

How the results depend on the processing

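With median centring in place of loess, the limma fit called 3094 genes (3036 higher, 58 lower) where the loess fit and every other setting run called 0, 295 genes rather than 124 were at least 2-fold apart the same way on both arrays, 4 rather than 2 of the 10 genes were, and the medians were 0.92 rather than 0.48 for the 10 genes and 0.48 rather than 0.18 for the partner genes. The count of 124 was 257 with processed signals and 245 with the deposited table, and with 1 array at a time from 278 to 644. With 1 array, 2 to 3 of the 10 genes were 2-fold apart and the medians were 0.38 to 0.60 and 0.16 to 0.21. The mean over probes gave 0.32 for the 10 genes, and no filter gave 0.15 for the partner genes. No median or count turned direction. Col1a2 (-0.05) and Bmp1 (-0.003) turned sign in the deposited table, where the bright probes of 6 of the 10 genes are blank on at least 1 array and Pcolce and Serpinh1 drop out. Of all 40477 probes in that table, 1165 are blank on array 1 and 2004 on array 2. Col5a1 (-0.02) and Pcolce (-0.08) were below 0 on array 1 alone. Apart from these losses of probes, the cause was not tested. Each log2 ratio already pairs knockdown with control on the same array, and the fit used these ratios. No further pairing was possible because both arrays form 1 group. Dim probes, such as the Adamts2 control at 60.5 and 60.6, limit the size of a ratio.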
